A study of Anopheles arabiensis with 20 samples.

Results

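The mitochondrial ribosomal RNA (rRNA) genes of the malaria mosquito Anopheles arabiensis are 2 rows, ASK67_gr01 and ASK67_gr02, of a gene count table with 13867 rows. They were chosen by identifier, with earlier results of these data known. Both were measured in all 20 libraries and passed the filter on low counts. A RefSeq table of the assembly AaraD3 annotates both as mitochondrial rRNA, with a length of 797 bases for ASK67_gr01 (the shorter rRNA below) and 1384 bases for ASK67_gr02 (the longer rRNA). The table does not say which ribosomal subunit each belongs to. In insect mitochondrial genomes in general, the rRNA of the large subunit is the longer one.

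Mitochondria keep their own ribosomes, which translate the small set of respiratory chain proteins encoded in the mitochondrial genome. Both rRNAs of these ribosomes are encoded in that same genome, whereas their ribosomal proteins come from the nucleus. Animal mitochondrial DNA is transcribed into long precursors that are cut at the tRNAs, so rRNAs and messenger RNAs (mRNAs) can be released from shared transcripts. Which of them share a transcript in this mosquito, and how stable each is, was not tested. Mitochondrial RNAs of insects, rRNAs included, can carry short tails of adenines, and a library made from RNA selected on such tails therefore holds some of them. A share of counts in a polyA library is a share of the captured RNA and not of total RNA, and how well each RNA was captured was not tested.

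The libraries form 5 groups of 4 biological replicates, each replicate a pool of 10 whole non-blood-fed females aged 3 to 5 days. ASN (Asendabo), TOL (Tolay) and CHW (Chewaka) were field populations, collected as larvae in Ethiopia and reared at the sites, and the labels describe them as resistant to the pyrethroid deltamethrin and to DDT. MOZ, from Mozambique, and SEK (Sekoru), from Ethiopia, were susceptible laboratory strains, and no group is given an insecticide exposure in the labels. Library ASN 2 below is replicate 2 of ASN, and so on. Run identifiers in the sample titles name a pair of sequencing runs of 10 libraries each. Run 1 held all ASN and TOL libraries with CHW 1 and CHW 2, and run 2 held CHW 3 and CHW 4 with all MOZ and SEK libraries. Run and kind of group thus cannot be told apart for ASN and TOL against the strains. Total counts ran from 12205530 in MOZ 2 to 21516390 in ASN 3. At these totals the 95% Wilson interval of a share was at most 0.0436 percentage points wide for the longer rRNA and 0.00412 for the shorter. Wilson intervals cover counting error only, and not the spread between pools. They can be too narrow even for counting error, because a molecule can be read more than once where no molecular identifiers are used. In RNA of whole bodies, fewer cells of a type and less RNA per cell cannot be told apart.

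The longer rRNA was the row with the most counts in every one of the 20 libraries, before any correction for length. It held 16.9, 15.7, 15.5 and 15.8% of all counts in ASN replicates 1 to 4 and 19.1, 18.4, 20.2 and 13.8% in TOL. In CHW it held 12.2, 18.4, 14.8 and 16.04%. In MOZ it held 12.8, 18.5, 12.4 and 14.7%, and in SEK 14.8, 17.9, 9.05 and 11.6%. The ASN libraries lay closest together, SEK 3 was the lowest library and TOL 3 the highest, and the ranges of all group pairs overlapped. The order of the group means was TOL (17.9 ± 2.82%), ASN (15.98 ± 0.631%), CHW (15.4 ± 2.58%), MOZ (14.6 ± 2.79%) and SEK (13.3 ± 3.83%, SD, n = 4 each). No neighbours in that order differed beyond their spread, and over the 10 pairs the exact 2-sided permutation p was at least 0.114 and the Benjamini-Hochberg adjusted p at least 0.531.

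The shorter rRNA held far fewer counts and varied much more. It held 0.192, 0.0386, 0.231 and 0.144% of counts in ASN replicates 1 to 4 and 0.194, 0.0364, 0.140 and 0.125% in TOL. In CHW the shares were 0.0781, 0.0649, 0.0293 and 0.0294%. They were 0.0179, 0.0316, 0.0292 and 0.0183% in MOZ and 0.0349, 0.0622, 0.0536 and 0.0359% in SEK. The 6 highest libraries of the series were all from ASN and TOL, while ASN 2 and TOL 2 lay inside the range of SEK. CHW fell into its runs, with both run 2 libraries under both run 1 libraries. Over all 20 libraries the highest share was 12.97 times the lowest and the coefficient of variation was 84.2%, against 2.23 times and 18.7% for the longer rRNA.

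**Figure D1:**
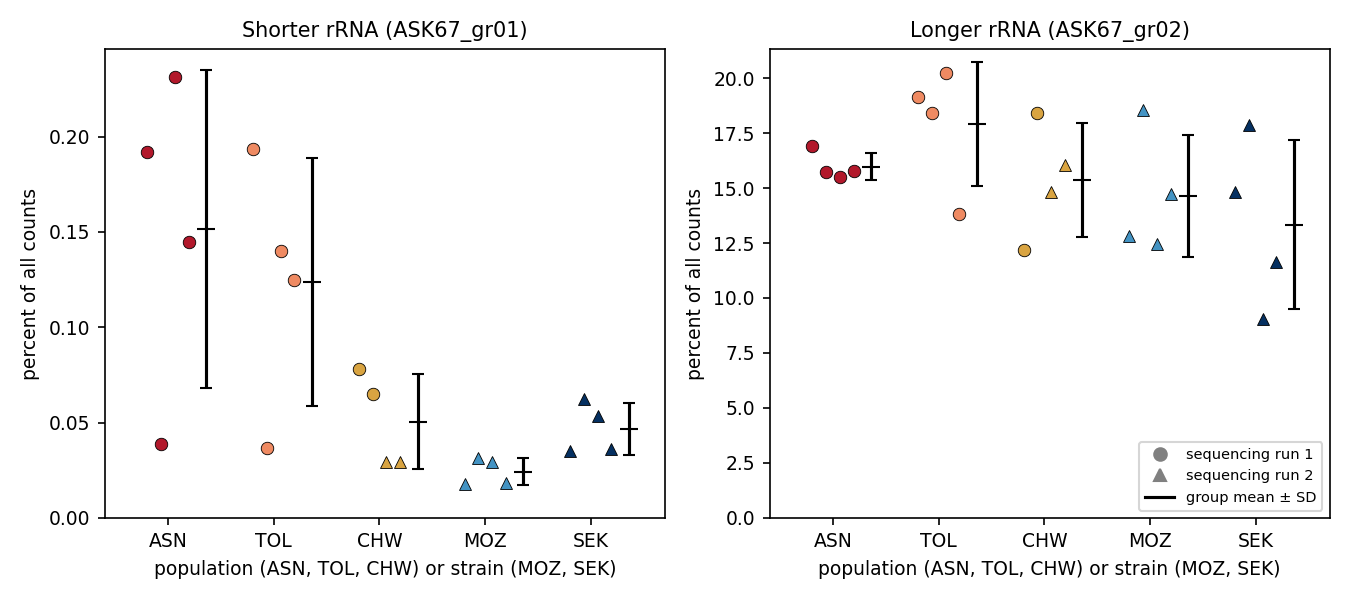
Percent of all counts in the shorter rRNA (left) and the longer rRNA (right), 1 point per library, circles for sequencing run 1 and triangles for run 2, with the group mean ± SD as a bar. The shorter rRNA ran from 0.0179 to 0.231% with the 6 highest libraries in ASN and TOL, and the longer rRNA ran from 9.05 to 20.2% with overlapping groups.

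Group means of the shorter rRNA were 0.152 ± 0.0833% in ASN, 0.124 ± 0.0653% in TOL, 0.0504 ± 0.0249% in CHW, 0.0242 ± 0.00720% in MOZ and 0.0466 ± 0.0135% in SEK. In order from the highest, these are ASN, TOL, CHW, SEK and MOZ. Of the neighbours in that order, ASN and TOL, TOL and CHW, and CHW and SEK overlapped, while the MOZ libraries all lay below the SEK libraries. ASN and TOL also lay wholly above MOZ. These 3 pairs without overlap reached an exact permutation p of 0.0286, the smallest that 4 against 4 libraries can give, and an adjusted p of 0.0952 over 10 pairs. The 12 population libraries averaged 0.109 ± 0.0722% and the 8 strain libraries 0.0354 ± 0.0156%, a difference of 0.0731 percentage points with an exact permutation p of 0.012. Here and below, populations and strains are compared with libraries as units, so the p does not measure spread between populations or between strains. For the longer rRNA the same means were 16.4 ± 2.32% and 13.99 ± 3.18%, with an exact permutation p of 0.0631. The difference was 6.10 percentage points with nuclear counts as the denominator (exact permutation p = 0.0117) and 5.82 from CPM after TMM scaling (p = 0.00633). On shares of all counts the p fell under 0.05 without CHW 1 (0.0295), TOL 4 (0.0476), SEK 2 (0.0265) or MOZ 2 (0.0195), with differences of 2.67 to 3.08 percentage points. Within run 1 the shorter rRNA exceeded CHW by 0.0801 percentage points in ASN and by 0.0522 in TOL, each with an exact permutation p of 0.333. Within run 2 CHW 3 and CHW 4 differed from SEK by -0.0173 and from MOZ by 0.00509, with exact permutation p-values of 0.133 and 0.333.

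Per kilobase, which allows levels of different genes to be compared, the longer rRNA was also the highest of the 15 mitochondrial rRNA and protein-coding rows in every library. CPM are counts scaled to a common library size. Its mean level was 128000 CPM per kilobase in ASN, 158000 in TOL, 109000 in CHW, 91400 in MOZ and 88300 in SEK. COX1, the catalytic subunit of cytochrome c oxidase and one of the most abundant mRNAs of the mitochondrion, had 36900, 43800, 16600, 2720 and 10700 CPM per kilobase in the same groups. The shorter rRNA had 2130 ± 1230 CPM per kilobase in ASN, 1890 ± 1120 in TOL, 622 ± 305 in CHW, 264 ± 81.5 in MOZ and 527 ± 192 in SEK. It ranked between 7 and 11 of the 15 rows, among subunits of NADH dehydrogenase such as ND1, and well below the cytochrome c oxidase subunits.

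The rRNAs of a ribosome are needed in equal numbers, yet the counts of the longer one exceeded those of the shorter one per base in every library. The excess was 50.7, 234, 38.6 and 62.9 times in ASN and 56.9, 291, 83.2 and 63.9 times in TOL. It was 89.9, 163, 292 and 315 times in CHW. In MOZ it was 414, 337, 246 and 465 times, and in SEK 245, 165, 97.3 and 186 times. The ratio was lowest in the 3 ASN and 3 TOL libraries other than ASN 2 and TOL 2, and highest in MOZ 4. These are ratios among captured RNAs.

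The ratio of the shorter to the longer rRNA does not depend on how libraries are scaled. Its log2 value averaged -6.99 ± 1.15 in ASN, -7.39 ± 1.08 in TOL, -8.38 ± 0.841 in CHW, -9.27 ± 0.403 in MOZ and -8.16 ± 0.558 in SEK. ASN exceeded MOZ by 2.28, a factor of 4.85, and MOZ was under SEK by a log2 difference of -1.11. Neither pair overlapped, and both had an exact permutation p of 0.0286 and an adjusted p of 0.143. Populations averaged -7.59 ± 1.12 and strains -8.71 ± 0.745, a difference of 1.13 with an exact permutation p of 0.0247. Without MOZ 4 this difference was 0.99 with a p of 0.0524. Within run 1, ASN exceeded CHW by 0.73 and TOL exceeded CHW by 0.32, with exact permutation p-values of 0.533 and 0.8. CHW 3 and CHW 4, of run 2, averaged -9.04 and CHW 1 and CHW 2, of run 1, -7.72.

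**Figure D2:**
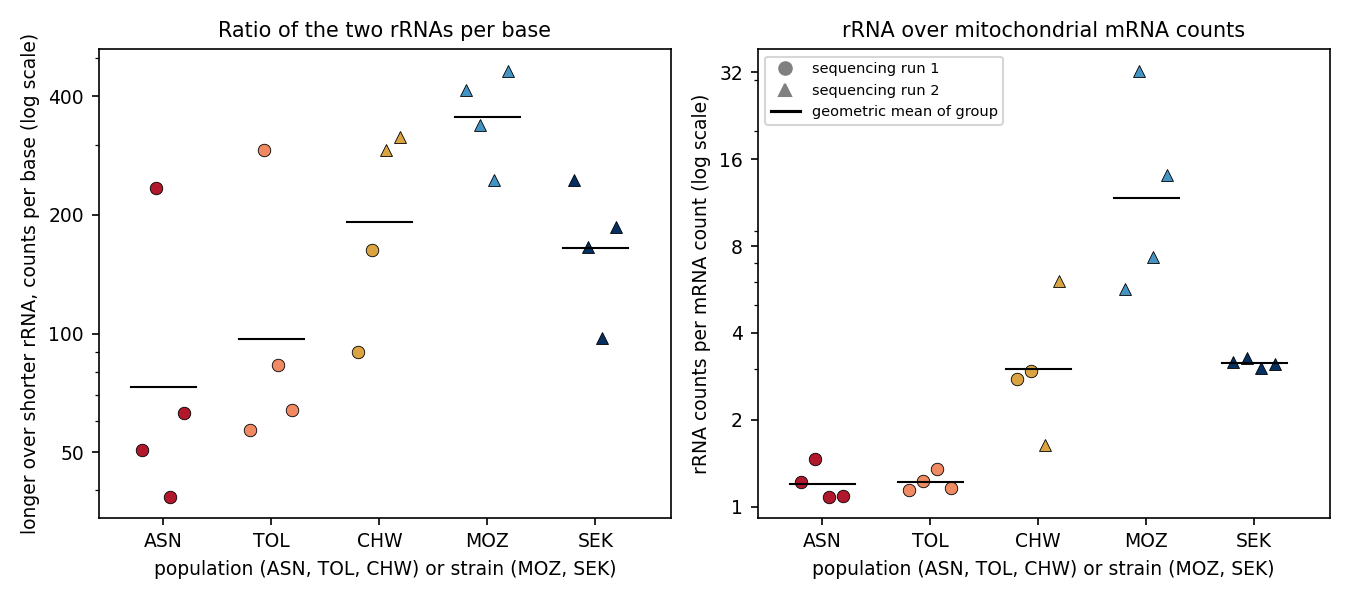
Left, counts per base of the longer rRNA over those of the shorter (log axis); right, summed rRNA counts per summed mitochondrial mRNA count (log axis), 1 point per library, with circles for run 1, triangles for run 2 and a line at each group's geometric mean. The left ratio ran from 38.6 in ASN 3 to 465 in MOZ 4, and the right one stayed between 1.09 and 1.46 in ASN and TOL but ran from 5.67 to 32.4 in MOZ.

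The next question was whether levels of the rRNA genes differed between groups when tested on the whole count table. edgeR's quasi-likelihood test with Benjamini-Hochberg adjustment was fitted to 11018 genes, and a gene was called at an adjusted p under 0.05 with a change of at least 2-fold, a log2 change of 1. All log2 fold changes are on the scale of CPM after TMM scaling, which takes the bulk of genes as unchanged. The shorter rRNA was higher in ASN than in SEK by 2.01 (SE 0.512, adjusted p = 0.00791), in a comparison that called 7.62% of genes. It was higher in TOL than in SEK by 1.85 (SE 0.509, adjusted p = 0.0106; 7.99% of genes called). CHW differed from SEK by 0.24, with an adjusted p of 0.809 (3.66% called).

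Against MOZ the shorter rRNA was higher by 3.01 in ASN (SE 0.533, adjusted p = 0.00015 by edgeR), where 15.8% of genes were called, and by 2.84 in TOL (adjusted p = 0.000284; 14.1% called). CHW exceeded MOZ by 1.24, with an adjusted p of 0.0624 (10.7% called), and the adjusted p fell under 0.05 with DESeq2 (1.24, adjusted p = 0.0351) and in edgeR without CHW 4 (1.44, adjusted p = 0.0399), ASN 2 (1.24, adjusted p = 0.0326) or TOL 2 (1.24, adjusted p = 0.0396). MOZ and SEK, the strains, differed by -0.997 (SE 0.499, adjusted p = 0.117; 12.7% called). These comparisons share strain libraries and are not independent of each other. The population mean exceeded the strain mean by 1.87 (SE 0.342, adjusted p = 0.000288), with 5.74% of genes called.

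Among the populations, the shorter rRNA was higher in ASN than in CHW by 1.77 (adjusted p = 0.0246 by edgeR; 3.64% of genes called) and higher in TOL than in CHW by 1.61 (adjusted p = 0.0423; 3.5% called). ASN and TOL differed by 0.17, with an adjusted p of 0.892 (1.39% called). Both calls against CHW rested on single libraries. The ASN call was lost without ASN 1, ASN 3, CHW 3 or CHW 4, with log2 differences of 1.49 to 1.61 and adjusted p-values of 0.0627 to 0.0925. The TOL call was lost without CHW 2, CHW 3, CHW 4, TOL 1 or TOL 3, with differences of 1.22 to 1.76 and adjusted p-values of 0.0694 to 0.155. The calls of ASN and TOL against SEK and MOZ held when any 1 library was left out.

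With the sequencing run as a covariate, edgeR called the shorter rRNA in none of the 11 comparisons. The differences from SEK were then 0.73 in ASN (adjusted p = 0.613) and 0.56 in TOL (adjusted p = 0.697), and those from MOZ were 1.73 in ASN (adjusted p = 0.146) and 1.56 in TOL (adjusted p = 0.191). At an unadjusted p under 0.05, the fit with run held 3 comparisons, ASN against MOZ, MOZ against SEK, and ASN against CHW. The mean of populations exceeded that of strains by 0.75 (adjusted p = 0.466). In that fit the run effect is estimated from the CHW libraries alone. CHW 3 and CHW 4, of run 2, differed from CHW 1 and CHW 2, of run 1, by -1.28 (SE 0.664, unadjusted p = 0.0694, adjusted p = 0.965 by edgeR) for the shorter rRNA and by 0.01 for the longer. Fitted to 1 run alone, edgeR gave 1.28 for ASN over CHW (adjusted p = 0.265) and 1.10 for TOL over CHW (adjusted p = 0.314) in run 1, and -0.99 for MOZ against SEK (adjusted p = 0.0138) in run 2.

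**Figure D3:**
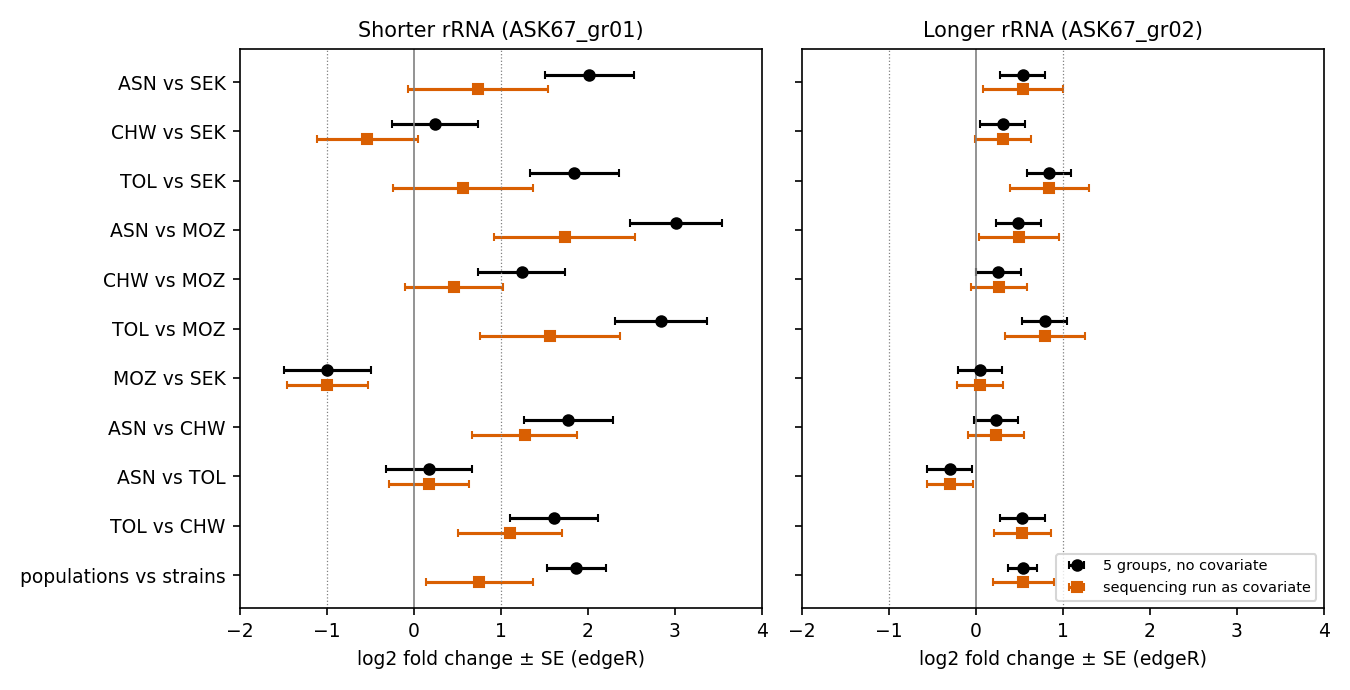
edgeR log2 fold changes ± SE of the shorter rRNA (left) and the longer rRNA (right) in each comparison, in black from the model of 5 groups and in orange with the sequencing run as a covariate, with dotted lines at a 2-fold change. For the shorter rRNA in populations against strains the black point lies at 1.87 and the orange one at 0.75, while for the longer rRNA both lie at 0.54.

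The longer rRNA differed by less than 2-fold in each of these comparisons and was not called by edgeR or by DESeq2. Its largest differences were in TOL, 0.84 over SEK (SE 0.258, adjusted p = 0.0195 by edgeR) and 0.79 over MOZ (adjusted p = 0.0177). It differed by 0.54 between ASN and SEK (adjusted p = 0.128), by 0.31 between CHW and SEK and by 0.05 between MOZ and SEK. Populations exceeded strains by 0.54 (SE 0.168, adjusted p = 0.0147), a difference under the 2-fold limit. The unadjusted edgeR p was under 0.05 in 3 of the 10 pairs, ASN against SEK, TOL against SEK and TOL against MOZ. TOL passed both limits over SEK without SEK 2 (1.10, adjusted p = 0.00437) or without TOL 4 (1.004, adjusted p = 0.00674).

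Scaling bore on the longer rRNA. When libraries were scaled by their totals, without TMM, the median log2 change of all genes between populations and strains lay at -0.33, against -0.01 with TMM. On that scale the longer rRNA differed between populations and strains by 0.23 with an adjusted p of 0.106 by edgeR, and the shorter by 1.55 with an adjusted p of 0.000285. Both rows kept a positive difference in either scaling.

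The protein-coding rows set against the rRNAs are the 13 mitochondrial mRNAs, which encode subunits of NADH dehydrogenase (ND), cytochrome b, cytochrome c oxidase (COX) and ATP synthase. Their summed counts were 14.1, 10.8, 14.5 and 14.7% of all counts in ASN, 16.9, 14.97, 15.1 and 11.96% in TOL and 4.44, 6.25, 9.07 and 2.65% in CHW. In MOZ they were 2.26, 0.573, 1.71 and 1.05%, and in SEK 4.69, 5.49, 3.01 and 3.72%. Every ASN and TOL library lay above every other library, and every MOZ library below every other. By edgeR, 12 of the 13 were called higher in populations than in strains, with a median log2 change of 2.48 where the median of all genes was -0.01 and 3.91% of genes were called higher. The exception was ND6, a NADH dehydrogenase subunit, at 0.01.

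Calls among the 13 mRNAs by pair of groups are set beside the share of all genes called. Higher calls numbered 10 in ASN and 10 in TOL against SEK, where 4.87 and 5.84% of all genes were called higher, with median log2 changes of 1.79 and 2.13. They numbered 12 in ASN, 12 in TOL and 10 in CHW against MOZ, where 8.28, 7.73 and 4.68% of genes were called higher, with medians of 3.62, 3.94 and 1.87. In MOZ against SEK 10 were called lower (6.29% of all genes), with a median of -1.495. Against CHW, 8 were called higher in ASN (2.82% of all genes) and 10 in TOL (2.72%). In CHW against SEK the median was 0.34, and in ASN against TOL -0.31. The longer rRNA, over the same 10 pairs, differed by at most 0.84.

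Summed rRNA counts per summed mRNA count separated 7 of the 10 pairs of groups without overlap, against 3 pairs for the share of the shorter rRNA. The ratio was 1.21, 1.46, 1.09 and 1.09 in ASN and 1.14, 1.23, 1.35 and 1.17 in TOL. In CHW it was 2.77, 2.95, 1.64 and 6.08. It was 5.67, 32.4, 7.32 and 14.1 in MOZ, and 3.17, 3.27, 3.02 and 3.14 in SEK. ASN and TOL shared 1 narrow range below all other libraries, and MOZ lay above all except CHW 4. Since the longer rRNA held nearly all rRNA counts, this is in effect its ratio, and with it alone as numerator the same pairs passed the test. The mRNA share by itself also kept these 7 pairs apart without overlap. It separated CHW (lowest 2.65%) from MOZ (highest 2.26%) as well, a pair that overlapped in the ratio. The share of the longer rRNA by itself overlapped in all pairs.

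In SEK the ratio varied by 3.21% of its mean, although the share of the longer rRNA in the same 4 libraries ran from 9.05 to 17.9%. The longer rRNA and the mRNAs thus varied in proportion across SEK replicates. In MOZ they did not, as MOZ 2 had the highest rRNA share and the lowest mRNA share of its group. CHW was the most spread population, with CHW 3 at 1.64 and CHW 4 at 6.08 in the same run.

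On the log2 scale the ratio of rRNA to mRNA averaged 0.27 ± 0.202 in ASN, 0.29 ± 0.109 in TOL, 1.59 ± 0.777 in CHW, 3.55 ± 1.12 in MOZ and 1.65 ± 0.0464 in SEK. ASN lay under SEK by a log2 difference of -1.39, a factor of 2.62, and TOL by -1.37. ASN lay under MOZ by -3.29, a factor of 9.75, and TOL by -3.27. MOZ exceeded SEK by 1.90. ASN and TOL lay under CHW by -1.32 and -1.30. None of these 7 pairs overlapped, and each had an exact 2-sided permutation p of 0.0286, as low as 4 against 4 libraries allow, with an adjusted p of 0.0408 over 10 pairs.

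CHW differed from MOZ by -1.97 with an exact permutation p of 0.0571 and from SEK by -0.07 with a p of 0.714, and ASN from TOL by -0.02 with a p of 0.857. The mean of populations was 0.71 ± 0.771 and that of strains 2.60 ± 1.25, a difference of -1.89 with an exact permutation p of 0.000262. That p again takes libraries as units, and the population CHW and the strain SEK hardly differed. Within run 1 alone, ASN and TOL lay under CHW 1 and CHW 2 by -1.25 and -1.23, each without overlap and each at the smallest p that 4 against 2 libraries allow, 0.0667. Within run 2 alone, CHW 3 and CHW 4 differed from SEK by 0.00 (exact permutation p = 0.933) and from MOZ by -1.89 (p = 0.2). The difference between MOZ and SEK lies wholly within run 2. Without any 1 SEK library it was 1.88 to 1.92, with an adjusted p of 0.0714. Leaving out 1 library moved the difference of ASN from CHW between -1.61 and -0.98, and that of TOL from CHW between -1.59 and -0.96. The adjusted p was 0.0714 for ASN without any 1 ASN library, at differences of -1.41 to -1.27. It was also 0.0714 for TOL without any 1 TOL library, at -1.35 to -1.27. In the fits at 0.0714 the groups still did not overlap, and with 1 library fewer in a group the permutation p moves in coarse steps. Without CHW 4, CHW lay under SEK by -0.41 with an adjusted p of 0.0357.

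The shorter rRNA was also set against the mRNAs alone. Its log2 ratio to the summed mRNAs averaged -6.74 ± 0.968 in ASN, -7.12 ± 1.05 in TOL, -6.80 ± 1.04 in CHW, -5.72 ± 1.16 in MOZ and -6.51 ± 0.528 in SEK. All group pairs overlapped, and the adjusted p over 10 pairs was at least 0.714. Populations lay under strains by -0.77 with an exact permutation p of 0.09. No group pair was thus separated by this ratio, whereas 7 were by that of the longer rRNA.

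Across all 20 libraries, levels relative to nuclear counts were compared on the log2 scale. The shorter rRNA and the mRNA sum had a Pearson correlation of 0.77 and a Spearman correlation of 0.80 (permutation p = 0.0001 and 7e-05, adjusted p over 3 relations 0.0003 and 0.00021). The longer rRNA and the mRNA sum had a Pearson r of 0.574 and a rho of 0.686 (permutation p = 0.00815 and 0.00125, adjusted 0.0122 and 0.00187). The rRNAs themselves had an r of 0.527 and a rho of 0.555 (permutation p = 0.0171 and 0.0127, adjusted 0.0171 and 0.0127). Without the 2 libraries farthest from the median on the x axis, r was 0.774, 0.795 and 0.546. All of these quantities come from the same libraries and share their depth and denominator.

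These relations lay mainly between groups. The pooled permutations exchanged libraries across groups, so their p-values do not allow for the grouping. Within run 1 (n = 10) r was 0.489 for the shorter rRNA with mRNA, 0.744 for the longer rRNA with mRNA and 0.25 between the rRNAs, with permutation p-values of 0.152, 0.0155 and 0.493. Within run 2 (n = 10) r was 0.462, 0.00118 and 0.0685, with permutation p-values of 0.176, 0.998 and 0.849. On deviations from group means r was 0.108, 0.188 and 0.152, and none had a permutation p under 0.478. In run 2 the MOZ libraries had the lowest mRNA levels with levels of the longer rRNA inside the range of SEK.

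**Figure D4:**
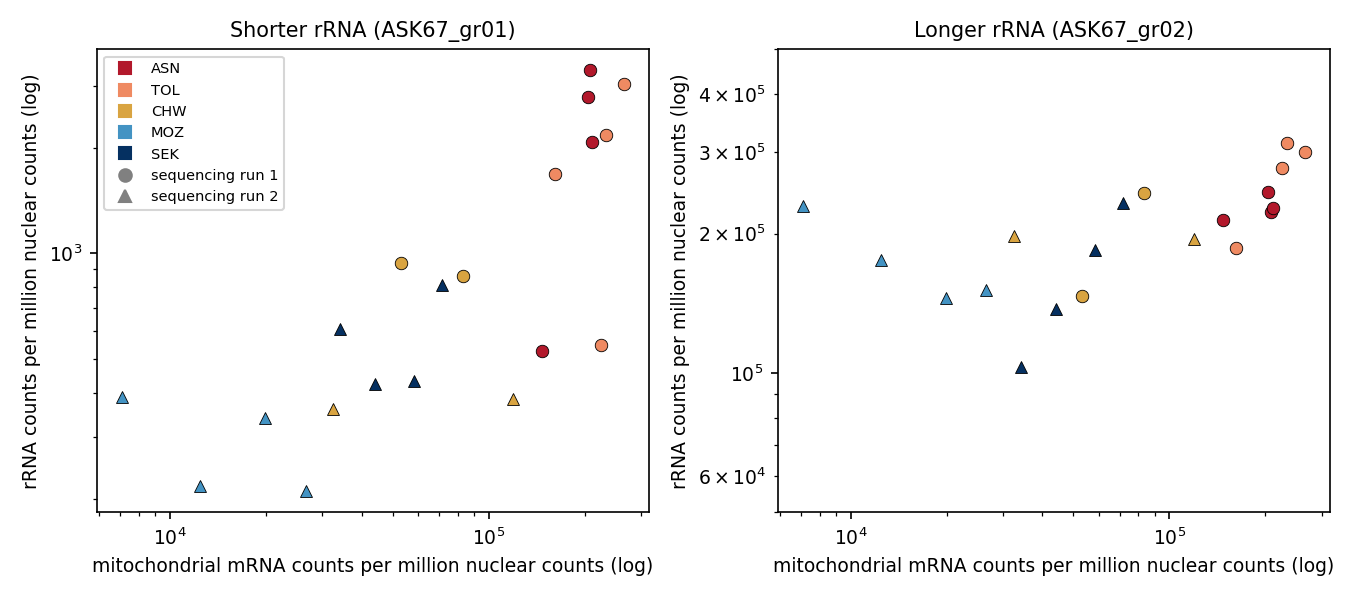
Shorter rRNA (left) and longer rRNA (right) against the summed mitochondrial mRNAs, each relative to nuclear counts on log axes, 1 point per library coloured by group, circles for run 1 and triangles for run 2. Pearson r over the 20 libraries was 0.77 on the left and 0.574 on the right, and ASN 2 and TOL 2 lie below the other ASN and TOL libraries on the left.

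The genes most like each rRNA were found by the Pearson r of log2 CPM over the 20 libraries among 11017 other tested genes, as a description. For the shorter rRNA the first 5 were all mitochondrial mRNAs, ND2 (0.956), ND3 (0.919), ND5 (0.896), ATP6 (0.884) and ND4 (0.865). All are subunits of NADH dehydrogenase except ATP6, a subunit of ATP synthase. On deviations from group means their r was 0.882, 0.837, 0.68, 0.629 and 0.531. ASN 2 and TOL 2, described below, deviated most of all libraries in the shorter rRNA, ND2 and ND3. Correlations without these libraries were not computed. COX1 reached 0.75, or 0.037 on deviations, ND6 -0.0165, and the longer rRNA 0.576 at rank 936. In the RefSeq table the shorter rRNA is the last gene of the mitochondrial sequence, and ND2 is the first protein-coding gene at its start, after 3 tRNA genes. The other 4 do not adjoin it.

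For the longer rRNA the first 5 were nuclear rows, AARA015030 (0.864), AARA005491 (0.863), AARA004894 (0.848), AARA014444 (0.846) and AARA004032 (0.843), which the files and the RefSeq table do not name. The highest mitochondrial mRNA was ND1, next to the longer rRNA in gene order with 1 tRNA gene between them, with an r of 0.754 at rank 55.

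ASN 2 and TOL 2, singled out after their values were seen, were the lowest libraries of their groups in the shorter rRNA. The gap to the next library, as a fraction of the group's range, was 0.549 in ASN and 0.561 in TOL for the share of the shorter rRNA. For the log2 ratio of the rRNAs it was 0.729 in ASN and 0.768 in TOL, and all of these lie under Dixon's 95% critical value for 4 samples. In ASN 2 the shorter rRNA lay under the mean of the other 3 ASN libraries by -2.26 in log2 CPM, ND2 by -3.46 and ND3 by -2.31. In the same library the longer rRNA differed from those libraries by -0.03 and COX1 by -0.19. In TOL 2 the shorter rRNA lay under the mean of the other 3 TOL libraries by -1.97, ND2 by -3.25 and ND3 by -2.46, while the longer rRNA differed by 0.15 and COX1 by 0.28. Other mRNAs were also low in ASN 2, ATP6 by -1.86, ND5 by -1.60 and ND4 by -1.11, and less so in TOL 2, at -0.90, -0.66 and -0.20. ND6 was higher than in the other libraries of the group, by 0.98 in ASN 2 and 1.14 in TOL 2.

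**Figure D5:**
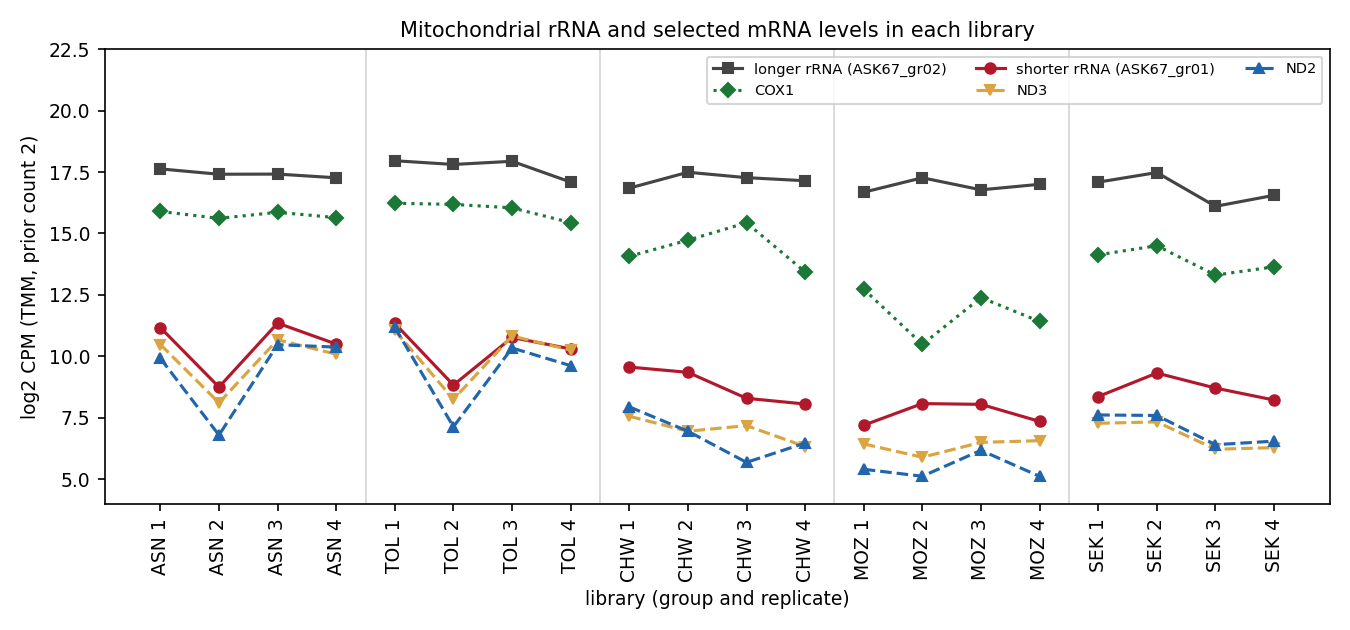
Levels of both rRNAs and of COX1, ND2 and ND3 in each library as log2 CPM after TMM scaling with a prior count of 2, with lines joining the libraries of a group for reading only. In ASN 2 and TOL 2 the shorter rRNA, ND2 and ND3 dip by 1.97 to 3.46 under the mean of the other libraries of the group, while the longer rRNA and COX1 differ from it by -0.19 to 0.28.

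The tRNA genes around the rRNAs held almost no counts. In the RefSeq table ASK67_gt22 lies between the rRNA genes and ASK67_gt21 on the other side of the longer one, and both are listed at 0 counts in all 20 libraries. ASK67_gt21 overlaps the longer rRNA by 40 bases and ASK67_gt22 overlaps it by 19 and the shorter rRNA by 1, so reads there could be assigned to either gene, and how the counting treated such reads is not given in the sources used here. Over all 22 mitochondrial tRNA rows, 12 had no count in any library and the rest held 704 counts in total. Of the 2 that could be tested, ASK67_gt06 had 0 to 31 counts in a library and ASK67_gt18 0 to 65, so changes rest on few counts. ASK67_gt06 was higher in populations than in strains by 2.69 (adjusted p = 0.000187 by edgeR), where 3.91% of genes were called higher. ASK67_gt18 differed by 0.50 (adjusted p = 0.42).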

How the data were processed

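RNA of whole females was measured as gene counts in 20 libraries. Libraries were made with a stranded polyA kit and read as pairs of 125 bp, per the labels' protocols. The authors deposited 1 table of raw counts per gene, whole numbers with no normalization, judged from the values. The submitters' processing notes list FastQC 0.11.4, HISAT2, Cufflinks, SAMtools 1.5 and HTSeq 0.9.0. Genome build, annotation and counting settings, including the use of strand, were not given in the sources used here, and counts of overlapping genes are therefore uncertain. Every row named a gene. Of 13867 identifiers, the RefSeq table (AaraD3) matched the 37 mitochondrial ones and 0 of the 13830 nuclear ones, so nuclear genes for mitochondrial ribosomal proteins and markers of blood feeding were not analysed here.

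Shares were taken of all counts in a library. edgeR 4.0.16 in R 4.3.3 tested 11018 genes kept by filterByExpr, with TMM scaling, 5 groups and no covariate (common biological coefficient of variation 0.189). The standard error is the log2 change divided by the square root of F. DESeq2 1.42.0 was an alternative. Single values were tested with exact 2-sided permutation tests of the difference in means, and correlations with 100000 permutations, in numpy 2.4.6. Wilson intervals were computed in scipy 1.17.1. On counts simulated for ASN against SEK with 4-fold changes, edgeR called 199 of 200 changed genes and 2 unchanged ones among 10843. The simulation used the spread that edgeR itself had fitted and changed only genes above 5 CPM. It held no run effect, so it cannot show how calls fare where run and group are confounded. p-values measure the spread between pools of females, and not that between the 3 populations or between the 2 strains. The genes named are both rRNAs, the tRNA neighbours, the mitochondrial mRNAs and the 5 genes most like each rRNA. The members and lists were chosen with earlier results of these data known.

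Alternatives covered scaling, the filter, the tool, run, replicate number as a block, the denominator and each library left out. Removing ASN 2 and TOL 2 together, and fitting edgeR within 1 run, were chosen after seeing the data.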

Additional observations from a re-analysis of the deposited data

How the results depend on the processing

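Shares of the longer rRNA in populations minus strains passed the test with nuclear counts as denominator (6.10, exact permutation p = 0.0117), with CPM after TMM (5.82, p = 0.00633) and with the replicate number as a block (2.43, p = 0.0449, against 0.0631 without). Leaving out 1 library gave 1.73 to 3.08 percentage points, with a p under 0.05 without CHW 1, TOL 4, SEK 2 or MOZ 2. The replicate block also ended the edgeR call of the shorter rRNA in TOL against CHW (1.58, adjusted p = 0.0518) and changed no other edgeR call of either rRNA. Libraries were treated as sharing only a number, because not every same-numbered pair had deviations from group means correlated over 0.1. That held for 8 of 40 same-numbered pairs (median r 0.011, highest 0.530) and 16 of 120 others (median 0.0068, highest 0.267). As a hint from the data, 9 of 20 libraries correlated best with their own number among the 4 replicate numbers. How many would do so by chance was not tested.

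ASN 2 and TOL 2 were removed because they were low in the shorter rRNA, which by construction raises its differences, so no p is given for its share. The differences were 0.143 (ASN) and 0.106 (TOL) percentage points over SEK, 0.165 and 0.129 over MOZ, and 0.139 and 0.102 over CHW. The log2 ratio of rRNA to mRNA then missed the threshold with 3 ASN and 3 TOL libraries, at -1.48 and -1.37 from SEK, -3.38 and -3.27 from MOZ (adjusted p = 0.0571 each) and -1.41 and -1.31 from CHW (adjusted p = 0.0714 each). With medians in place of means the log2 ratio of rRNA to mRNA differed by -1.46 for ASN and -1.39 for TOL from SEK. It differed by -3.14 and -3.08 from MOZ, by -1.32 and -1.25 from CHW, and by 1.69 for MOZ from SEK. Each of these had an exact permutation p of 0.0571 and an adjusted p of 0.0714. Where groups do not overlap, exchanging the innermost library of each leaves both medians unchanged. With these group sizes that p thus cannot fall below 0.0571, and the test on medians cannot pass. Within run 1 the ratio differed by -1.25 and -1.23 from CHW, where the design cannot pass either. Leaving out 1 library gave -1.61 to -0.98 for ASN and -1.59 to -0.96 for TOL from CHW. The call was lost without any ASN or any TOL library, at -1.41 to -1.27 and -1.35 to -1.27 (adjusted p = 0.0714 each). The range for MOZ from SEK was 1.41 to 2.25, with the call lost without any SEK library at 1.88 to 1.92 (adjusted p = 0.0714 each). In these fits the groups still did not overlap, and the exact permutation p was 0.0571, against 0.0286 with all libraries. With 1 library fewer in a group that p moves in coarse steps, so the lost calls alone do not show that a difference rests on single libraries.

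With the shorter rRNA alone as numerator, no pair passed: -0.23 (ASN) and -0.61 (TOL) from SEK, -1.02 and -1.40 from MOZ, 0.058 and -0.32 from CHW, 0.79 for MOZ from SEK, 0.38 for ASN from TOL and -0.77 for populations from strains. With both rRNAs summed as numerator, the small log2 difference of CHW from SEK was -0.07. It turned to 0.21 on the linear scale, 0.14 with the geometric mean of the mRNAs and 0.0046 within run 2. Without 1 library it ran from -0.41 to 0.22. The difference of ASN from TOL in that summed ratio turned to 0.063 with the geometric mean and ran from -0.11 to 0.028 without 1 library. The log2 ratio of the rRNAs in populations against strains was 1.50 with medians (exact permutation p = 0.0699) and 0.99 to 1.31 without 1 library. It ran from -0.58 to 0.033 for CHW from SEK and from -0.13 to 0.96 for ASN from TOL.

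Other differences that changed sign were far from the threshold. The share of the shorter rRNA in CHW against SEK was -0.0173 within run 2 and -0.00546 to 0.0108 without 1 library, and in ASN against TOL -0.00116 to 0.0656. The share of the longer rRNA ran from -0.28 to 2.03 in CHW against MOZ, -0.13 to 2.81 in MOZ against SEK and -0.45 to 1.62 in ASN against CHW. The edgeR change of the shorter rRNA in CHW against SEK was -0.54 with run as covariate, -0.60 with run and replicate block, -0.55 within run 2 and -0.035 to 0.51 without 1 library. In ASN against TOL it ran from -0.13 to 0.56, and that of the longer rRNA in MOZ against SEK from -0.15 to 0.31. Pearson correlations missed the threshold within run 1 (0.489 for the shorter rRNA with mRNA, 0.25 between rRNAs), within run 2 (0.462, 0.00118, 0.0685), on deviations (0.108, 0.188, 0.152) and, for the longer rRNA with mRNA and between rRNAs, on percent of counts (0.339, 0.301). On percent of counts the Spearman rho of the longer rRNA with mRNA was 0.513 (permutation p = 0.0227, adjusted p over 3 relations 0.034). The cause of these changes was not tested.

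Dropping the 2-fold limit raised the genes called from 840 to 2805 in ASN and from 880 to 3200 in TOL against SEK, and from 632 to 4722 in populations against strains. Run as a covariate lowered ASN against SEK to 526 and ASN against MOZ to 1107, against 1737. In ASN against TOL 153 genes were called, and 83 to 268 without 1 library. With library totals alone TOL against SEK had 1352, and the higher calls in populations against strains were 284 of 903, against 431 of 632. Depth was no limit for the rRNAs, whose lowest count was 2468 in a library.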
